A study of Mus musculus with 4 samples.

Results

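The cyclins, cyclin-dependent kinases (CDKs), CDK inhibitors and E2F-RB genes of mouse pre-B cells were examined as a set of 41 genes, named in a fixed list by symbol. All 41 were among the 23284 gene symbols measured in each library. Pre-B cells are bone marrow precursors of B lymphocytes that carry a rearranged immunoglobulin heavy chain. The study compared pre-B cells of C57BL/6J mice in 4 RNA-seq libraries, 1 for each of 4 groups, to look for pathways that the adaptor protein STAP-2 (gene Stap2) affects when B cell production is inefficient. At steady state, pre-B cells came from STAP-2 transgenic (Tg) marrow and from wild-type (WT) marrow, and both titles carry the code 0901. At 1 month after transplantation, they came from marrow labelled STAP-2 knockout (KO) and from WT marrow, and both titles carry the code 0826. Transplantation and title code therefore cannot be told apart. The promoter of the transgene, the extent of the knockout allele, the donors and hosts of the transplants, the age and sex of the mice, the sort of the cells and any pooling of animals are unstated in the labels.

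Cyclins switch on their partner CDKs in an order that carries a cell through the cycle. D cyclins with CDK4 and CDK6 begin the inactivation of the RB pocket proteins in G1, E2F factors are then released and raise cyclin E, cyclin A and DNA replication genes, and cyclin B with CDK1 drives mitosis. In resting cells the inhibitor p27 (Cdkn1b) and complexes of the pocket protein p130 (Rbl2) with E2F4 hold the same genes down. Pre-B cells are known for a burst of division driven by the pre-B cell receptor, which is followed by a resting stage in which the light chain genes are rearranged.

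Values are FPKM, a read number scaled to transcript length and library size, which allows levels of different genes to be set side by side. Each group has 1 library, so that differences stand without any check between replicates and the conditions could not be tested. Ratios of 1 gene between libraries are therefore given with a 95% exact Clopper-Pearson interval that rests on estimated reads and covers counting error only, and ratios between genes of 1 library have no interval. Estimated depth was 7240000 reads in the Tg library, 7300000 in the steady-state WT library, 8650000 in the library labelled KO and 7720000 in the transplanted WT library. Differences are log2(FPKM + 1) of 1 library minus the other, and "rose" or "fell" is used for genes at 2-fold or more on that scale. That scale understates the change of low genes. All 41 genes passed the minimum of 1 FPKM in at least 1 library of every comparison, and 40 of them reached it in all 4 libraries. Their levels ran between 0.934 FPKM for Ccnd1 in the transplanted WT library and 224.5 FPKM for Ccnd3 in the library labelled KO, and the lowest value rested on 25 reads. Exons of 17 members overlap a gene on the opposite strand, 2 overlap a gene on the same strand and 3 have a named pseudogene, which makes the values of 21 genes less certain, since the labels do not state whether the authors counted by strand.

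All 12 pre-B marker genes were detected in every library, with a summed level of 7635 FPKM in the Tg library, 8376 in the steady-state WT library, 7570 in the library labelled KO and 8070 in the transplanted WT library. Stap2 itself was near the limit of detection, at 0.536 FPKM in the Tg library, 0.212 in the steady-state WT library and 0.179 in the library labelled KO, and it was listed at 0 in the transplanted WT library. The Stap2 values therefore check neither the transgenic nor the knockout label. The 10 neutrophil markers summed to 1827 FPKM in the Tg library and 761 in the steady-state WT library, and to 643 in the library labelled KO and 1666 in the transplanted WT library. All 10 were detected in every library. Monocyte and macrophage markers summed to 33.7 FPKM in Tg and 19.5 in steady-state WT, and to 24.3 in the library labelled KO and 48.4 in transplanted WT, and plasma cell markers to 299.7 FPKM in Tg and 417 in steady-state WT, and to 90.7 in the library labelled KO and 96.5 in transplanted WT. T and NK cell markers summed to between 3.99 and 8.58 FPKM over the libraries. Hba-a1, an alpha globin gene of red cells, was at 3.89 FPKM in Tg and 32.6 in steady-state WT, and at 8.17 in the library labelled KO and 4.38 in transplanted WT, and its part in the results was not tested.

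Promoter sequence was at hand for 30 of the 41 genes, from the RefSeq annotation of GRCm38.p6, and for 8 of them 110 bases upstream of the start site are printed to show what promoters of genes of different phases look like in these letters. Capitals mark 3 kinds of motif: the CHR element bound by MuvB complexes (TTTGAA and also TTCGAA), the E2F site (TTTGGCG and also TTTCGCG and also TTCCCGC), and the CCAAT box bound by NF-Y. Both strands were searched, so that a motif can stand as its reverse complement. Ccnb2, Cdkn3 and Cks2 act in mitosis, E2f8 in S and G2, Cdc25a and Rbl1 at the entry into S phase, Cdk7 throughout the cycle and Cdkn1b in quiescence. The stretches are chr9:70421555-70421664 (minus strand) for Ccnb2, chr14:46760431-46760540 (plus) for Cdkn3, chr13:51645122-51645231 (plus) for Cks2 and chr7:48881597-48881706 (minus) for E2f8. Those of the others are chr9:109875469-109875578 (plus) for Cdc25a, chr2:157204535-157204644 (minus) for Rbl1, chr13:100730943-100731052 (minus) for Cdk7 and chr6:134920291-134920400 (plus) for Cdkn1b.
Ccnb2: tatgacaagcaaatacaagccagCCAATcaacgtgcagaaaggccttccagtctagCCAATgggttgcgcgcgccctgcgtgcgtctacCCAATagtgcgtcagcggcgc
Cdkn3: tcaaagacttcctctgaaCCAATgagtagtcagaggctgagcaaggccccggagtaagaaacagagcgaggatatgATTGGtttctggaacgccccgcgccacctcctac
Cks2: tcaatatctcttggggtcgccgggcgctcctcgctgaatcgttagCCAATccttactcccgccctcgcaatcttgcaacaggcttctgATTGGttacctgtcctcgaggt
E2f8: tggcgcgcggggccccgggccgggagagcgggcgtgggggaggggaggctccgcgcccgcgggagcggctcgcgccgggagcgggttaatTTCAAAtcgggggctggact
Cdc25a: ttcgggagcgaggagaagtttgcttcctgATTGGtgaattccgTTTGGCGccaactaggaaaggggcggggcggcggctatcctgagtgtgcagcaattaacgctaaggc
Rbl1: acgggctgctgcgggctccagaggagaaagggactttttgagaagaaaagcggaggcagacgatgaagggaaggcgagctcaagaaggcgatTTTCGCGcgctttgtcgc
Cdk7: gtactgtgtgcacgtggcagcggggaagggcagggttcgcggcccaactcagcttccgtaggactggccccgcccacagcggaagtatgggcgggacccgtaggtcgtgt
Cdkn1b: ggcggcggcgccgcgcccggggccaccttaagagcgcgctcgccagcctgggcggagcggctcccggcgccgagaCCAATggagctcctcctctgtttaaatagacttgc

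Within 110 bases, Ccnb2 carried CCAAT boxes beginning 87, 54 and 21 bases before the start, and Cdkn3 carried them at 92 and 34 and Cks2 at 65 and 22. E2f8 had a CHR motif at 20, Rbl1 an E2F site at 18 and Cdc25a an E2F site at 67 beside a CCAAT box at 81. Cdkn1b had a single CCAAT box at 35, and Cdk7 had none of the letters searched. Over 250 bases upstream, a CCAAT box stood in 19 of the 30 genes, a CHR motif in 10, an E2F site in 9, and CHR with CCAAT in 9. Among all 32851 RefSeq promoters searched over the same length the shares were 33.85% for CCAAT, 17.15% for CHR, 5.58% for E2F and 6.02% for CHR with CCAAT. A gene was counted where any of its promoters held the motif, motifs that overlap were each counted, and these matches describe letters, not bound sites. Of the 19 genes of G1/S, S/G2 and M with a sequence, 15 held a CCAAT box and 9 held CHR with CCAAT. Of the 11 other genes, 4 held a CCAAT box and 0 held CHR with CCAAT.

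In Tg pre-B cells at steady state, 29 of the 41 genes were higher and 12 lower than in WT cells, but none reached 2-fold. The median difference was 0.31 on the log2 scale, against -0.02 over all 10843 genes tested. The background for these counts is that 46.7% of all genes were higher by any amount, 1.22% rose and 0.682% fell. After transplantation, 36 genes were higher and 5 lower in the library labelled KO than in the WT library, with a median of 0.49, against -0.03 over 10790 genes. There, 7 genes rose (Ccne2, Ccnf, Ccnb1, Cdk1, Cdkn3, Cdc25c and E2f7) and 0 fell, while of all genes 44% were higher by any amount, 0.667% rose and 1.18% fell. Among the 20 members with no overlapping exon and no named pseudogene, 2 rose there, Cdk1 and Cdkn3. Over all genes of that pair 72 rose and 127 fell as deposited, and 117 rose and 105 fell when each library was rescaled to the same sum. In bulk RNA, a larger share of dividing cells and more RNA per cell cannot be told apart.

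The cell cycle genes of the transplanted WT library were mostly a little below those of the steady-state WT library: 8 were higher and 33 lower, with a median of -0.17 against -0.02 over 10835 genes. Of all genes in that comparison 45.9% were higher by any amount, 1.67% rose and 0.628% fell. Ccnd2 was the single member that rose, and 0 members fell. The transplanted WT library enters this comparison and the one with the library labelled KO, so a low value there lowers 1 of the differences and raises the other. The values of each library are given for that reason.

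**Figure D1:**
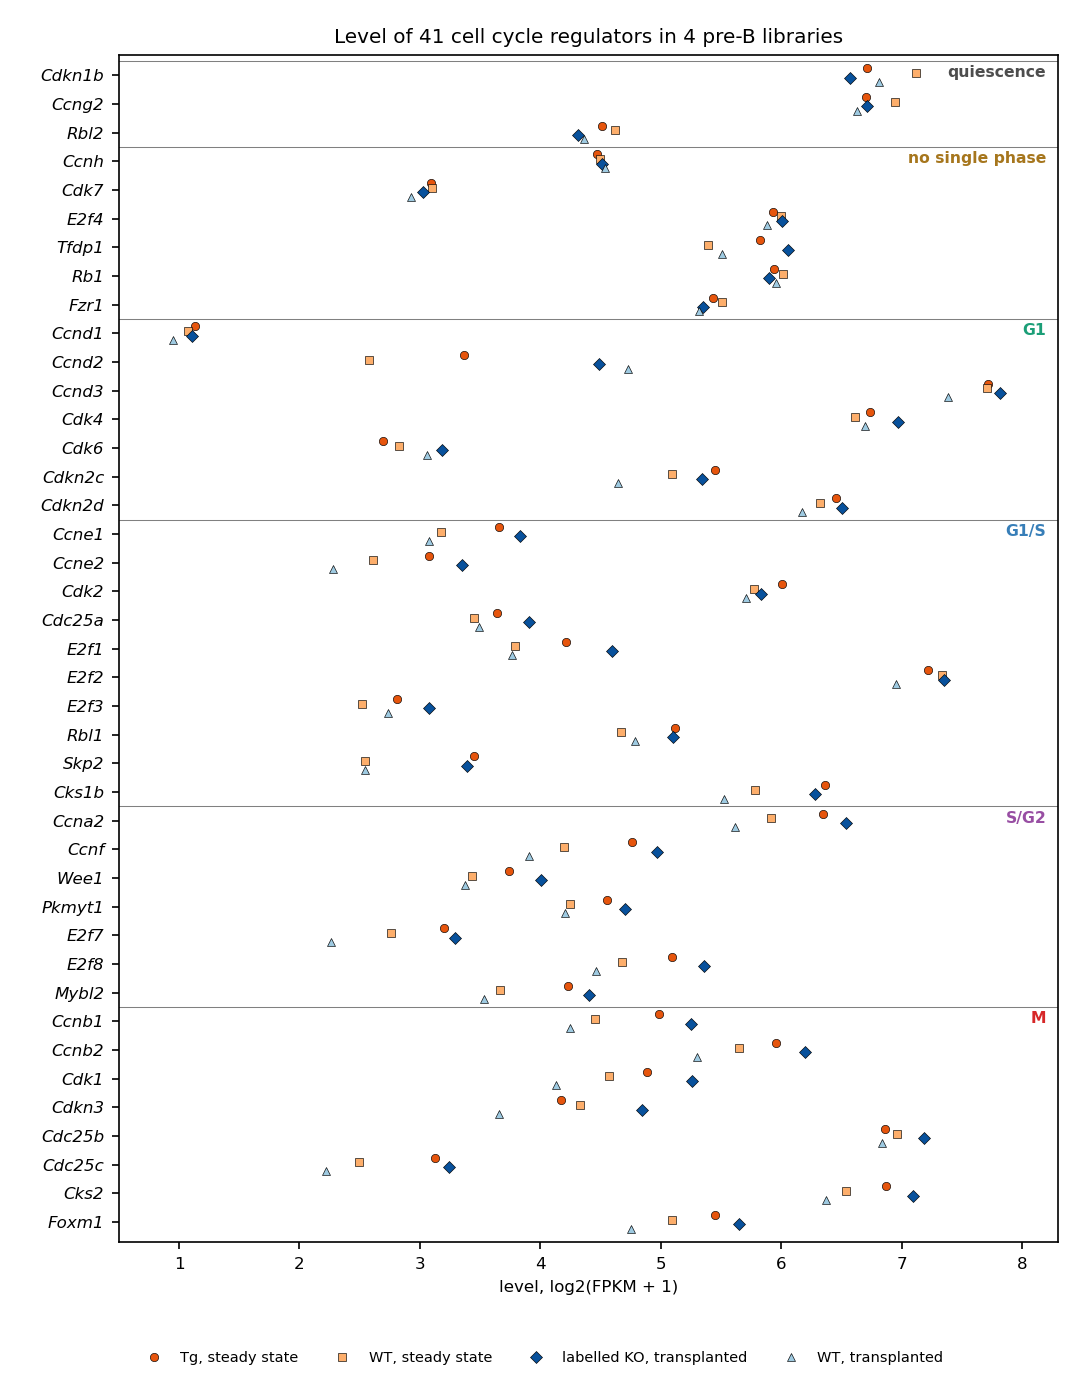
Level of each of the 41 genes as log2(FPKM + 1) on the horizontal axis, with genes grouped by phase of action down the page and 1 point per library (Tg and WT at steady state, labelled KO and WT after transplantation; 1 library each, so no error bar). In the S/G2 and M groups the library labelled KO lies farthest right and the transplanted WT library farthest left for all 15 genes, whereas genes with no single phase lie close together, with a median highest-to-lowest ratio of 1.12.

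The size of the differences varied with the phase in which the genes act. From the Tg comparison, the medians were 0.12 for 7 G1 genes, 0.43 for 10 G1/S genes, 0.43 for 7 S/G2 genes and 0.32 for 8 M genes. From the comparison of the library labelled KO with transplanted WT, they were 0.27 for G1, 0.58 for G1/S, 0.90 for S/G2 and 0.95 for M. The 6 genes with no single phase had medians of -0.05 and 0.07 in these comparisons, and the 3 quiescence genes -0.24 and -0.05. From transplanted WT minus steady-state WT the medians were -0.12 for G1, -0.04 for G1/S, -0.21 for S/G2, -0.31 for M, -0.08 for no single phase and -0.31 for quiescence. The 25 proliferation genes of G1/S, S/G2 and M were higher in the Tg library in 22 cases and in the library labelled KO in 25 cases.

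**Figure D2:**
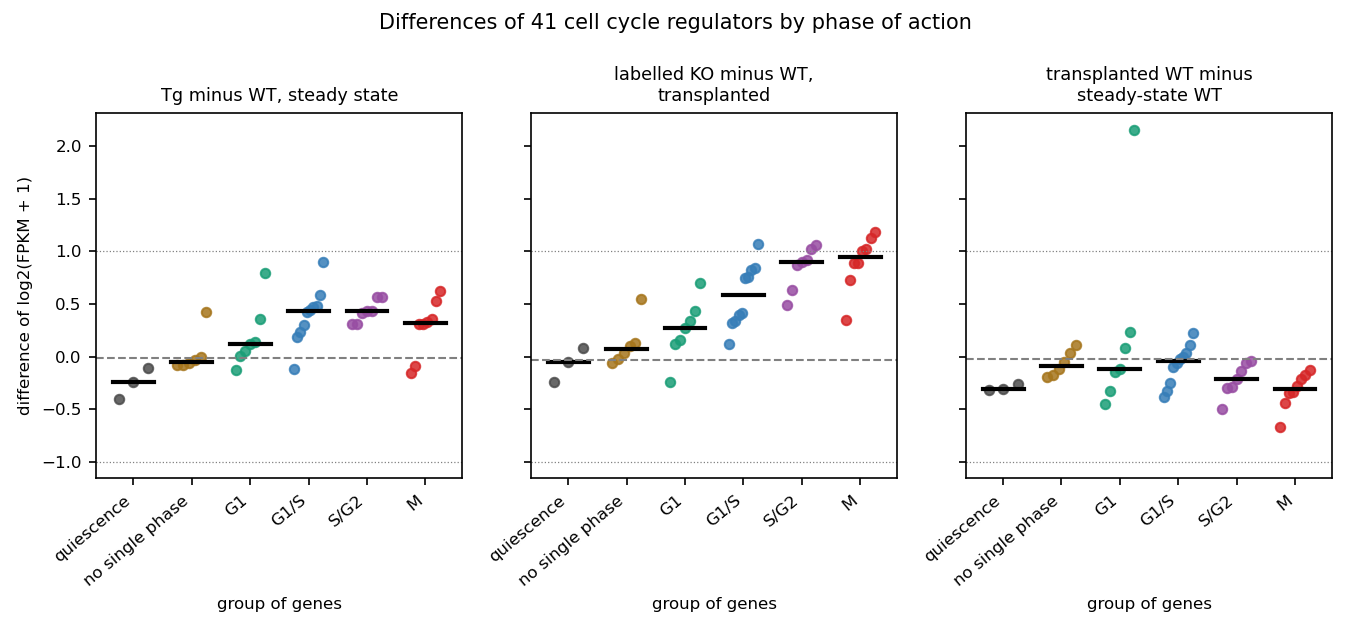
Difference of log2(FPKM + 1) for each gene (points) by phase of action, for Tg minus WT at steady state, labelled KO minus WT after transplantation, and transplanted WT minus steady-state WT. Bars are group medians, the dashed line is the median of all genes tested, and the dotted lines mark 2-fold; the M group median is 0.32, 0.95 and -0.31 in these panels, and the point above 2 is Ccnd2.

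Among the D cyclins, which pair with CDK4 and CDK6 in G1, cyclin D3 carried nearly all of the level. Ccnd3, which mouse pre-B cells need for their expansion, was at 209 FPKM in the Tg library, against 208 in the steady-state WT library, and at 224.5 in the library labelled KO, against 166 in the transplanted WT library. The steady-state libraries were alike within counting error (ratio 1.00, interval 0.952 to 1.06), and after transplantation the library labelled KO was 1.35-fold above WT (1.28 to 1.43). Ccnd3 made up 95.2% of the summed D cyclin FPKM in the Tg library and 97.2% in the steady-state WT library, and 90.9% in the library labelled KO and 86.2% in the transplanted WT library. Exons of Ccnd3 overlap Bysl on the opposite strand, which was at no more than 30.7 FPKM. Ccnd3 also has a named pseudogene, so its reads may be divided between copies.

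Cyclin D2 was high after transplantation. Ccnd2 (GRCm38 chr6:127125162-127152193, minus strand; all gene positions are on this build) was at 9.30 FPKM in the Tg library, against 4.95 in the steady-state WT library, and at 21.4 in the library labelled KO, against 25.5 in the transplanted WT library. Both transplanted libraries were above both steady-state libraries. Transplanted WT exceeded steady-state WT 5.16-fold (4.47 to 5.98), Tg exceeded steady-state WT 1.88-fold (1.59 to 2.22), and the library labelled KO was at 0.840 of transplanted WT (0.774 to 0.912). Its share of the D cyclin sum was 4.23% in the Tg library and 2.31% in the steady-state WT library, and 8.68% in the library labelled KO and 13.3% in the transplanted WT library. The 3 pro-B markers (Dntt, Kit and Flt3) summed to 8.82 FPKM in Tg and 2.70 in steady-state WT, and to 16.0 in the library labelled KO and 12.8 in transplanted WT, of which Dntt held most. Flt3 was at 0.319 FPKM in Tg and 0.356 in steady-state WT, and at 0.167 in the library labelled KO and 0.262 in transplanted WT. Of the 12 pre-B markers 9 were lower in Tg than in steady-state WT and 7 were lower in transplanted WT than in steady-state WT. In the library labelled KO 5 were lower than in transplanted WT. Of all genes, 5779 of 10843, 5867 of 10835 and 6038 of 10790 were lower in these comparisons. Vpreb1, Igll1 and Dntt are given here after their values were seen, and Vpreb1 and Igll1 differed from most of the 12 in being higher in Tg. Vpreb1, a surrogate light chain gene, was at 34.4 FPKM in the Tg library and 7.31 in the steady-state WT library, and at 38.6 in the library labelled KO and 30.2 in the transplanted WT library. Igll1, another of the 12, was at 39.89 FPKM in Tg and 14.63 in steady-state WT, and at 49.72 in the library labelled KO and 36.42 in transplanted WT. Dntt, the terminal transferase of pro-B cells, was at 7.53 FPKM in Tg and 2.12 in steady-state WT, and at 15.1 in the library labelled KO and 12.1 in transplanted WT. The part of these markers in the Ccnd2 result was not tested.

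Cyclin D1 was close to absent, with Ccnd1 at 1.19 FPKM in the Tg library, 1.10 in steady-state WT, 1.16 in the library labelled KO and 0.934 in transplanted WT, and its differences were not detectable at this depth. Cdk4, the main kinase partner, was at 106 FPKM in the Tg library, against 96.97 in steady-state WT, and at 124 in the library labelled KO, against 103 in transplanted WT. Cdk6, the alternative partner, was far lower, at 5.47 FPKM in Tg against 6.09 in steady-state WT, and at 8.09 in the library labelled KO against 7.35 in transplanted WT. Cdk4 held between 93.3% and 95.1% of the pair in every library. Cdk4 was highest in the library labelled KO, 1.21-fold above transplanted WT (1.13 to 1.30), and the Cdk6 intervals of both genotype comparisons held 1.

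The INK4 inhibitors, which block CDK4 and CDK6, did not run against the cyclins. Cdkn2c, encoding p18, was at 42.6 FPKM in the Tg library, against 33.1 in steady-state WT (ratio 1.29, 1.12 to 1.47), and at 39.5 in the library labelled KO, against 23.97 in transplanted WT (ratio 1.65, 1.43 to 1.91). Cdkn2c thus was higher in both libraries in which most cyclins were higher. Cdkn2d, encoding p19, was at 86.6 FPKM in Tg and 78.7 in steady-state WT, and at 89.7 in the library labelled KO and 70.9 in transplanted WT, with a ratio of 1.27 (1.14 to 1.40) in the transplanted pair.

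At the entry into S phase, both E cyclins were higher in the Tg library and the library labelled KO. Ccne1, an activator of CDK2, was at 11.6 FPKM in Tg, against 8.04 in steady-state WT (ratio 1.45, 1.12 to 1.88), and at 13.2 in the library labelled KO, against 7.45 in transplanted WT (ratio 1.78, 1.40 to 2.27). Ccne2 (chr4:11191351-11204779, plus strand), its close relative, was at 7.45 FPKM in Tg and 5.10 in steady-state WT, and at 9.22 in the library labelled KO and 3.86 in transplanted WT. The ratio of 2.39 (1.86 to 3.12) put Ccne2 among the genes that rose in the library labelled KO, although its exons overlap Ints8 on the opposite strand, a gene at up to 30.9 FPKM. Cdk2, the kinase they activate, differed less: it was at 63.1 FPKM in Tg and 53.6 in steady-state WT (1.18-fold, 1.07 to 1.29), and at 55.8 in the library labelled KO and 51.4 in transplanted WT, where the interval held 1.

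The genes that lead to destruction of p27 differed more than the kinase. Skp2 (chr15:9111985-9155425, minus strand), the F-box protein that marks phosphorylated p27 for degradation, was at 9.90 FPKM in the Tg library, against 4.84 in steady-state WT, and at 9.49 in the library labelled KO, against 4.83 in transplanted WT. The WT libraries were alike, and both other libraries lay above them. The plain ratio was 2.05 (1.55 to 2.70) for Tg and 1.96 (1.51 to 2.58) for the library labelled KO, while on the log2(FPKM + 1) scale the differences were 0.90 and 0.85, just short of 2-fold. Cks1b, which SKP2 needs to hold p27, was at 81.4 FPKM in Tg and 53.9 in steady-state WT (ratio 1.51, 1.28 to 1.78), and at 76.5 in the library labelled KO and 45.1 in transplanted WT (ratio 1.70, 1.44 to 2.01). Skp2 and Cks1b, together with Cdk2, Rbl1, Cdkn2c and Ccnd1, were highest in the Tg library, while 27 of the 41 members were highest in the library labelled KO. Of all 11053 genes compared over 4 libraries, 22% were highest in the library labelled KO.

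Cdkn1b (chr6:134920401-134925513, plus strand), the p27 gene, ran the other way. Its level was 104 FPKM in the Tg library, against 138 in steady-state WT, and 94.1 in the library labelled KO, against 112 in transplanted WT. Neither difference reached 2-fold, with ratios of 0.752 (0.705 to 0.802) and 0.844 (0.791 to 0.901). The WT libraries differed as well, with transplanted WT at 0.806 of steady-state WT (0.758 to 0.858). The log2 difference of the labelled KO comparison went from -0.24 to -0.14 when the libraries were rescaled to the same sum. Cdkn1b FPKM stood at 10.5 times that of Skp2 in the Tg library and 28.6 times in steady-state WT, and at 9.92 times in the library labelled KO and 23.1 times in transplanted WT. Cdc25a, the phosphatase that opens CDK2 for S phase, was at 11.5 FPKM in Tg and 9.93 in steady-state WT, and at 14.00 in the library labelled KO and 10.2 in transplanted WT, where the ratio was 1.37 (1.17 to 1.60).

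The S and G2 genes shared 1 direction: all 7 were higher in the Tg library than in steady-state WT, all 7 higher in the library labelled KO than in transplanted WT, and all 7 ran in the same order over the 4 libraries (labelled KO, Tg, steady-state WT, transplanted WT from high to low). That order was found in 18 of the 41 members and in 6.06% of all genes. Ccna2, the cyclin of DNA synthesis and G2, was at 80.5 FPKM in Tg, against 59.4 in steady-state WT (1.36-fold, 1.26 to 1.46), and at 91.7 in the library labelled KO, against 48.1 in transplanted WT (1.90-fold, 1.77 to 2.05). Its exons overlap Exosc9 on the opposite strand, which stayed between 17.02 and 18.97 FPKM. Ccnf (chr17:24222198-24251484, minus strand), an F-box substrate receptor of SCF ligases in G2 that binds no CDK, was at 26.1 FPKM in Tg and 17.3 in steady-state WT, and at 30.3 in the library labelled KO and 14.00 in transplanted WT. Ccnf rose in the library labelled KO, with a ratio of 2.16 (1.93 to 2.43), and its Tg ratio was 1.50 (1.34 to 1.69).

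The kinases that hold CDK1 inactive were higher along with the cyclins. Wee1 was at 12.4 FPKM in Tg and 9.77 in steady-state WT, and at 15.05 in the library labelled KO and 9.35 in transplanted WT, a ratio of 1.61 (1.37 to 1.90) in the transplanted pair. Pkmyt1, its membrane-bound relative, was at 22.5 FPKM in Tg and 17.95 in steady-state WT, and at 25.01 in the library labelled KO and 17.5 in transplanted WT, a ratio of 1.43 (1.22 to 1.68). These are the smallest differences of the S/G2 group in the transplanted pair.

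The mitotic genes were highest in the library labelled KO and lowest in transplanted WT in 8 of 8 cases. Over all 41 members, transplanted WT was lowest in 30, against 24.6% of all genes. Cdk1 (chr10:69335146-69352938, minus strand), the mitotic kinase, was at 28.5 FPKM in the Tg library, against 22.8 in steady-state WT (1.25-fold, 1.13 to 1.38), and at 37.3 in the library labelled KO, against 16.5 in transplanted WT (2.26-fold, 2.04 to 2.51). Cdk1 overlaps no other gene's exons. Its cyclin gene Ccnb1 (chr13:100778650-100786570, minus strand) was at 30.6 FPKM in Tg and 20.97 in steady-state WT, and at 37.01 in the library labelled KO and 17.98 in transplanted WT. Ccnb1 rose in the library labelled KO at a ratio of 2.06 (1.80 to 2.36), on the edge of 2-fold. Ccnb2, the more abundant B cyclin, was at 61.2 FPKM in Tg and 49.1 in steady-state WT, and at 72.2 in the library labelled KO and 38.5 in transplanted WT (1.88-fold, 1.66 to 2.12). Both B cyclins have a named pseudogene, so reads may be divided between copies.

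Among the other CDK1 regulators, Cdkn3 differed in sign between the genotype comparisons. Cdkn3 (chr14:46760541-46771669, plus strand), the phosphatase KAP that strips the activating phosphate from CDKs, was at 17.04 FPKM in the Tg library, against 19.1 in steady-state WT, and at 27.7 in the library labelled KO, against 11.6 in transplanted WT. The steady-state difference was not detectable at this depth (ratio 0.893, 0.663 to 1.21), whereas the transplanted ratio was 2.38 (1.76 to 3.19), the largest log2 difference of the 41 genes in that pair. The difference between these differences was not tested. Transplanted WT was also below steady-state WT, at 0.610 of its level (0.444 to 0.855).

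Of the CDC25 phosphatases that activate CDK1, Cdc25b held between 85.8% and 89.4% of the family in all libraries. Cdc25b was at 116 FPKM in Tg, against 123 in steady-state WT, and at 145 in the library labelled KO, against 113 in transplanted WT, so that Tg was slightly lower (0.937, 0.886 to 0.991) and the library labelled KO higher (1.28, 1.22 to 1.35). Cdc25c was at 7.70 FPKM in Tg and 4.64 in steady-state WT (1.66-fold, 1.19 to 2.33), and it rose in the library labelled KO, at 8.43 FPKM against 3.64 in transplanted WT (2.31-fold, 1.65 to 3.29). Cks2, a small CDK1 binding subunit whose promoter is printed above, was at 116 FPKM in Tg and 92.1 in steady-state WT, and at 136 in the library labelled KO and 81.7 in transplanted WT (1.66-fold, 1.45 to 1.92).

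The CDK-activating kinase, which serves every phase, barely differed. Ccnh was at 21.2 FPKM in Tg and 21.6 in steady-state WT, and at 21.8 in the library labelled KO and 22.2 in transplanted WT. Cdk7 was at 7.54 FPKM in Tg and 7.55 in steady-state WT, and at 7.13 in the library labelled KO and 6.59 in transplanted WT. All intervals of both genes held 1 in the 3 comparisons; that of Cdk7 for Tg over steady-state WT ran from 0.746 to 1.34. Read against Cdk7, which has no single phase, Cdk1 FPKM stood at 3.78 times in the Tg library and 3.02 times in steady-state WT, and at 5.23 times in the library labelled KO and 2.50 times in transplanted WT.

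The E2F factors differed from one another. E2f2 was the dominant activator, with between 84.1% and 90.1% of the summed FPKM of E2f1, E2f2 and E2f3. E2f2 was at 148 FPKM in the Tg library, against 160.5 in steady-state WT (0.920, 0.884 to 0.956), and at 162 in the library labelled KO, against 123 in transplanted WT (1.31, 1.26 to 1.37). E2f1, which drives S phase genes and is itself an E2F target, was at 17.5 FPKM in Tg and 12.8 in steady-state WT (1.36-fold, 1.15 to 1.62), and at 23.1 in the library labelled KO and 12.6 in transplanted WT (1.83-fold, 1.57 to 2.15). E2f1 was thus higher in both libraries, while E2f2 was lower in Tg and higher in the library labelled KO. E2f3, the least abundant activator, was at 6.02 FPKM in Tg and 4.72 in steady-state WT, and at 7.44 in the library labelled KO and 5.67 in transplanted WT.

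**Figure D3:**
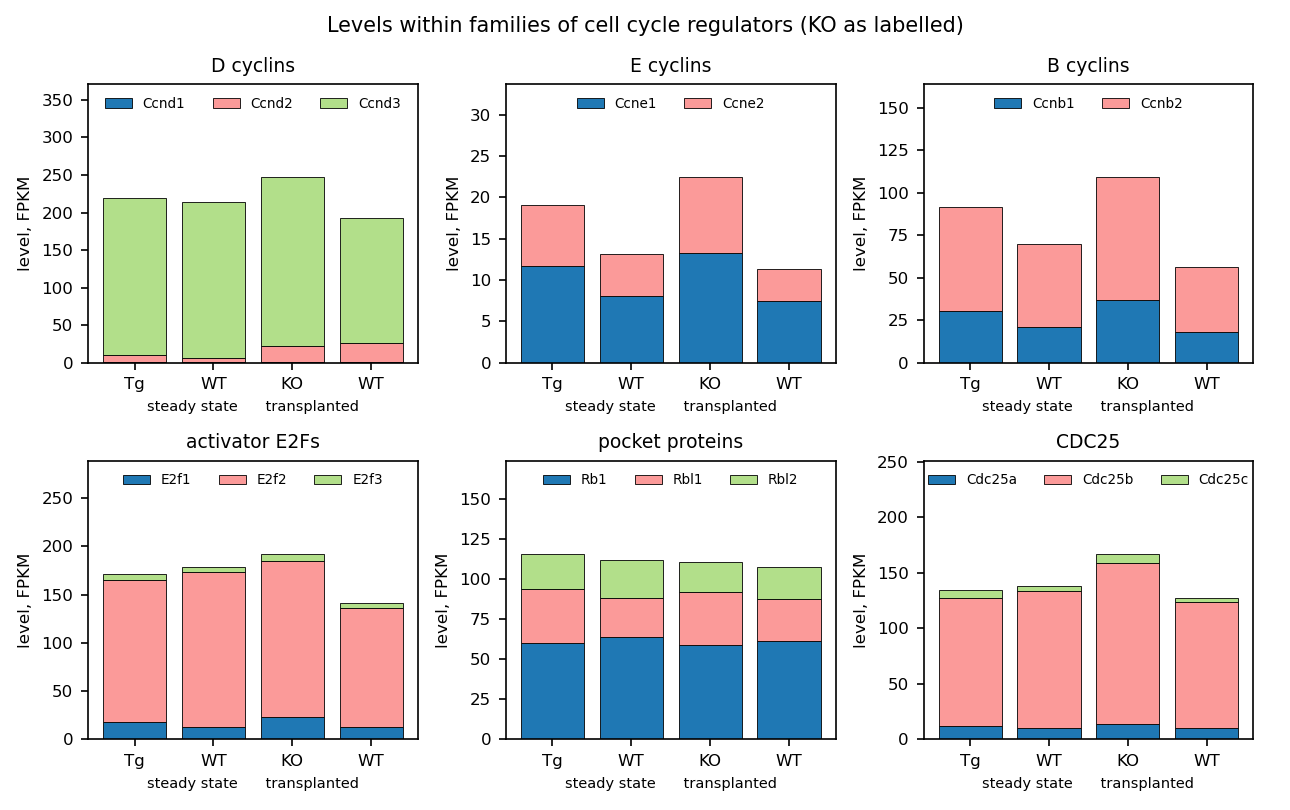
Summed FPKM (vertical axis, from 0) of 6 families of regulators in each library, stacked by gene, with Tg left of WT at steady state and labelled KO left of WT after transplantation (1 library each, no error bar). Ccnd3, E2f2 and Cdc25b dominate their families in all libraries, and the summed B cyclins stand at 91.8 FPKM in Tg and 70.1 in steady-state WT, and at 109 in labelled KO and 56.5 in transplanted WT.

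The atypical repressors E2F7 and E2F8, which shut E2F target genes down later in the cycle, were higher together with the targets. E2f8 was at 33.05 FPKM in Tg and 24.6 in steady-state WT (1.35-fold, 1.21 to 1.50), and at 40.1 in the library labelled KO and 21.1 in transplanted WT (1.90-fold, 1.72 to 2.11). E2f7 (chr10:110745439-110787384, plus strand) was at 8.17 FPKM in Tg and 5.77 in steady-state WT, and it rose in the library labelled KO, at 8.76 FPKM against 3.79 in transplanted WT (2.31-fold, 1.92 to 2.80). E2f4, the repressor that works with pocket proteins and is present throughout the cycle, stayed close to level, at 59.9 FPKM in Tg and 62.7 in steady-state WT, and at 63.3 in the library labelled KO and 57.8 in transplanted WT. Tfdp1, the DNA-binding partner of the E2Fs, was the exception among the genes with no single phase. It was at 55.5 FPKM in Tg, against 41.05 in steady-state WT (1.35-fold, 1.22 to 1.50), and at 65.4 in the library labelled KO, against 44.5 in transplanted WT (1.47-fold, 1.34 to 1.61).

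The pocket proteins, which bind E2Fs and hold their targets silent, differed by member. Rb1 was nearly level, at 60.2 FPKM in Tg and 63.5 in steady-state WT, and at 58.5 in the library labelled KO and 61.1 in transplanted WT, and its intervals held 1. Rbl1, encoding p107 of dividing cells, was at 33.7 FPKM in Tg and 24.4 in steady-state WT (1.38-fold, 1.26 to 1.51), and at 33.3 in the library labelled KO and 26.5 in transplanted WT (1.26-fold, 1.16 to 1.37). Rbl2, encoding p130 of resting cells, was at 21.8 FPKM in Tg and 23.6 in steady-state WT, and at 18.8 in the library labelled KO and 19.5 in transplanted WT, with both genotype intervals holding 1. The ratio of Rbl1 to Rbl2 FPKM was 1.55 in Tg and 1.04 in steady-state WT, and 1.77 in the library labelled KO and 1.36 in transplanted WT.

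The transcription factors that act on late genes with MuvB were higher as well. Mybl2, encoding B-MYB, was at 17.7 FPKM in Tg and 11.7 in steady-state WT (1.52-fold, 1.31 to 1.76), and at 20.2 in the library labelled KO and 10.6 in transplanted WT (1.91-fold, 1.66 to 2.21). Foxm1, which raises G2 and M genes, was at 42.6 FPKM in Tg and 33.1 in steady-state WT (1.29-fold, 1.18 to 1.39), and at 49.1 in the library labelled KO and 25.98 in transplanted WT (1.89-fold, 1.74 to 2.05). Fzr1, the CDH1 coactivator with which the anaphase-promoting complex destroys cyclins in G1, was at 42.2 FPKM in Tg and 44.5 in steady-state WT, and at 39.8 in the library labelled KO and 38.8 in transplanted WT, and both genotype intervals held 1.

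Set against the 25 proliferation genes, the quiescence genes Cdkn1b, Rbl2 and Ccng2 were lower in 3 of 3 cases in Tg. In the library labelled KO they were lower in 2 of 3, and none reached 2-fold. Over all genes 5779 of 10843 were lower in Tg and 6038 of 10790 in the library labelled KO, so 2 of 3 is near that share. The Rbl2 intervals held 1 in both (0.833 to 1.02 and 0.868 to 1.07). Ccng2, a cyclin that rises in cells leaving the cycle, was at 103 FPKM in the Tg library, against 122 in steady-state WT (0.844, 0.794 to 0.897), and at 104 in the library labelled KO, against 98.00 in transplanted WT (1.06, 0.999 to 1.13). All 3 quiescence genes were highest in the steady-state WT library. The median of the proliferation genes minus that of the quiescence genes was 0.66 for Tg over steady-state WT and 0.90 for the library labelled KO over transplanted WT. For transplanted WT over steady-state WT it was 0.098, since both groups were lower there, with medians of -0.21 for the proliferation genes and -0.31 for the quiescence genes. Ccna2 FPKM was 0.781 of Ccng2 in the Tg library and 0.486 in steady-state WT, and 0.882 in the library labelled KO and 0.491 in transplanted WT.

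The Tg and labelled KO comparisons use different libraries on both sides, and most members were higher in both. Of the 41 members 28 were higher in both comparisons (68.3%), 4 lower in both and 9 opposite (22.0%), whereas of 10580 genes tested in both 23.8% were higher in both and 42.9% opposite. The 4 that were lower in both were Cdkn1b, Rbl2, Rb1 and Ccnh, and the last 3 turned slightly higher in the library labelled KO when the libraries were rescaled to the same sum. Among the 9 with opposite signs, Ccnd2 was higher in Tg and lower in the library labelled KO. Cdkn3, E2f2, Cdc25b, Ccng2, Cdk6, Cdk7, E2f4 and Fzr1 were the reverse. Cdk7 had a steady-state difference of -0.0021 whose sign changed with the scaling. Intervals of Cdk6, Cdk7, E2f4, Fzr1, Rbl2, Rb1 and Ccnh held 1 in both comparisons, so counting error alone leaves their signs uncertain. The Cdkn3 interval held 1 in Tg, and that of Ccng2 in the library labelled KO. With its sign counted, the difference was higher in the labelled KO comparison for 37 of the 41 genes (90.2%), against 5378 of the 10580 genes (50.8%), and Ccnd2, Skp2, Rbl1 and Cdk2 were the others. Across the 41 genes, which are not independent replicates and share their libraries, Pearson's r between the differences was 0.58 and Spearman's rho 0.58, against 0.0085 and 0.16 across all 10580 genes. The labels name STAP-2 transgenic marrow for the Tg library and STAP-2 knockout marrow for the other. The Stap2 values, near the limit of detection, check neither label.

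**Figure D4:**
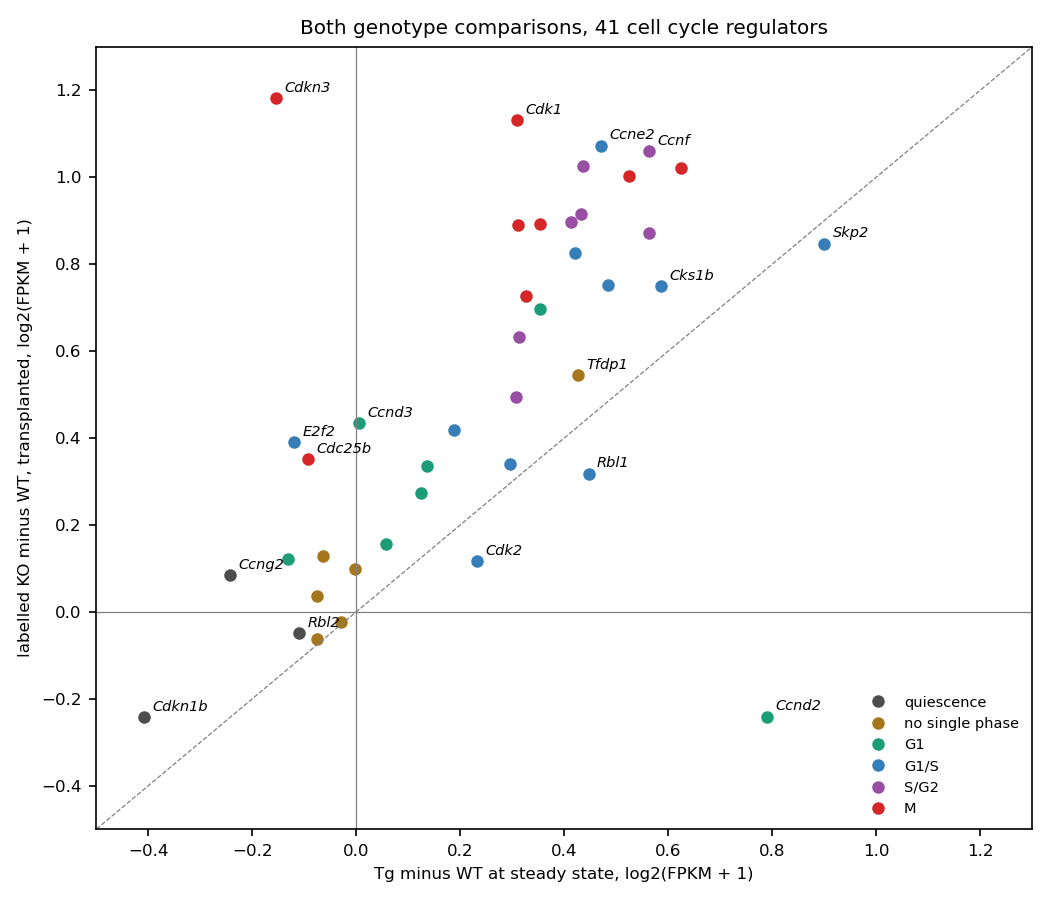
Difference of log2(FPKM + 1) for labelled KO minus transplanted WT (vertical) against Tg minus steady-state WT (horizontal) for the 41 genes, coloured by phase, with the line of equal differences dashed. Most S/G2 and M genes lie in the upper right above the line, Cdkn3 lies at -0.15 and 1.18, and Ccnd2 lies apart at 0.79 and -0.24.

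Intervals of the 41 ratios are set here beside those of all genes. Whether an interval leaves out 1 depends on the number of reads, and the genes set beside the members were not matched for it. In the Tg comparison 25 of the 41 intervals lay above 1, 4 below and 12 held it, while of 9716 genes with a transcript length 14.8% lay above and 18% below. In the labelled KO comparison 29 lay above, 2 below and 10 held it, while of 9666 genes 15.2% lay above and 22.4% below. From transplanted WT over steady-state WT, 2 lay above, 17 below and 22 held it, while of 9708 genes 16.2% lay above and 18.7% below. The intervals that lay below 1 belonged to Cdkn1b, Ccng2, E2f2 and Cdc25b in Tg, and to Cdkn1b and Ccnd2 in the library labelled KO. Marker genes of other cells moved with the groups as well. All 10 neutrophil markers were higher in Tg than in steady-state WT (median 1.23). All 10 were lower in the library labelled KO than in transplanted WT (median -1.46). All 5 measured immature and mature B cell markers were higher in Tg (median 0.16) and lower in the library labelled KO (median -0.56). Ms4a1 was at 262.8 FPKM there, against 412 FPKM in transplanted WT. The 5 summed to 514 FPKM in Tg and 460.5 in steady-state WT, and to 579 in the library labelled KO and 868 in transplanted WT. From transplanted WT over steady-state WT, all 5 were higher (median 0.64), and so were all 10 neutrophil markers (median 1.13). The part of these marker genes in the results on cell cycle genes was not tested.

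Genes of the same machinery outside the 41 showed which neighbours shared these differences. The proliferation markers Mki67, Pcna and Top2a were higher in both: Mki67 was at 120.0 FPKM in Tg and 93.8 in steady-state WT, and at 143 in the library labelled KO and 72.7 in transplanted WT. Genes listed under replication licensing were higher in 15 of 15 cases in Tg (median 0.33) and in 15 of 15 in the library labelled KO (median 0.56). Cdc6 was at 11.1 FPKM in Tg and 6.56 in steady-state WT, and at 13.1 in the library labelled KO and 7.33 in transplanted WT. Mitotic kinases were higher in 9 of 9 cases in both, with medians of 0.37 and 0.91, and Aurka, the spindle pole kinase, was at 18.9 FPKM in Tg and 16.4 in steady-state WT, and at 28.6 in the library labelled KO and 13.8 in transplanted WT. By contrast, the 12 cyclins and CDKs that act in transcription, such as Cdk9 and Ccnt1, were higher in 2 cases in Tg (median -0.08) and in 6 in the library labelled KO (median -0.06). Of all genes, 46.7% were higher by any amount in Tg and 44% in the library labelled KO.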

How the data were processed

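The members, phase groups and other gene lists were chosen with earlier results of these data known. The kits were miRNeasy for RNA and TruSeq stranded mRNA for libraries, per the labels' protocols. The deposited values were read as FPKM, since the submitters' processing notes name Cufflinks 2.2.1 and the headers name no unit. These notes also name TopHat2 2.0.13, Bowtie2 2.2.3, SAMtools 0.1.19 and mm10. Their order, the annotation, the strand setting and any filter were not given in the sources used here.

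Depth was estimated from the FPKM steps of 2956 genes with 1 transcript, for a transcript length less 210 nt. Of 1568 values of 1 to 10 reads, 70.6% were whole to within 0.1 read, where chance gives 20%. Read estimates are rougher where a gene has several transcripts, and without molecular identifiers reads do not count independent molecules. Differences used a pseudocount of 1 FPKM and a minimum of 1 FPKM in either library. Named genes were all 41 members, Stap2, Mki67, Pcna, Top2a and up to 4 of each list with the largest difference in a comparison. Genes named from a list are therefore its extremes and not typical members. Vpreb1, Igll1, Dntt, Ms4a1, Cdk9, Ccnt1, Flt3, Ccna1, Ccnb3, Gadd45b, Cdkn2a, Tfdp2, Sesn1, Pik3ip1, Tob1 and overlapping genes were named after their values were seen. Lengths and coordinates came from GENCODE M21 (GRCm38, the assembly of mm10), and promoters from RefSeq. Alternatives were another pseudocount, other filters and 3 scalings. Python 3.11.15 with pandas 2.3.3, numpy 2.4.6, scipy 1.17.1 and matplotlib 3.10.9 was used, and the calculation was tested on simulated data.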

Additional observations from a re-analysis of the deposited data

How the results depend on the processing

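No median of a phase group or of the 41 members changed direction under another pseudocount (0.1 FPKM), a filter of 5 FPKM, no filter, or scaling by upper quartile or by median gene ratio. With a pseudocount of 0.1 FPKM, 1 member, Skp2, reached 2-fold in Tg over steady-state WT, against 0 before. The counts over all genes followed the handling of low values. With that pseudocount 275 rose and 159 fell in Tg (132 and 74 before), 154 and 267 in the library labelled KO (72 and 127), and 346 and 158 in transplanted over steady-state WT (181 and 68). With the filter of 5 FPKM 69 rose and 44 fell in Tg, 80 fell in the library labelled KO and 41 fell in transplanted over steady-state WT. Rescaling each library to the same sum moved the median of all genes to -0.13, 0.06 and -0.12 in the Tg, labelled KO and transplanted WT comparisons. There, 117 genes rose and 105 fell in the library labelled KO, so that 52.7% of those past 2-fold were higher against 36.18%. The median of the members minus that of all genes was then 0.32, 0.53 and -0.14, against 0.33, 0.53 and -0.15. This rescaling moved 22 of 123 single-gene values beyond their counting interval, and scalings changed the sign of 10 small differences. The quiescence median in the library labelled KO turned from -0.05 to 0.05. In the 20 members without overlapping exons or named pseudogenes, a choice made after seeing the data, 2 rose in the library labelled KO instead of 7, and 0 in transplanted over steady-state WT instead of 1, since Ccnd2 was left out. No paired analysis was possible because each group has 1 library. Depth limits the low genes most: the Ccnd1 values rest on 25 to 35 reads.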

Other observations

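Genes associated with quiescence outside the 41 were mostly lower in both genotype comparisons, 7 of 10 in Tg (median -0.31) and 9 of 10 in the library labelled KO (median -0.33). Of all genes, 5779 of 10843 were lower in Tg and 6038 of 10790 in the library labelled KO. Sesn1, Pik3ip1 and Tob1 were slightly higher in Tg, and Pik3ip1 also in the library labelled KO. The genes with the largest differences in Tg follow. Klf4, a transcription factor that restrains B cell division, was at 19.1 FPKM in the Tg library, against 48.1 in steady-state WT, and at 14.0 in the library labelled KO, against 37.8 in transplanted WT, and it fell past 2-fold in both. Klf2, a related factor of resting lymphocytes, was at 239.5 FPKM in Tg and 473 in steady-state WT, and it fell in the library labelled KO, at 188 FPKM against 436 in transplanted WT. Foxo1, a factor of early B cell development, was at 78.2 FPKM in Tg and 111 in steady-state WT, and at 78.1 in the library labelled KO and 99.0 in transplanted WT. In the labelled KO comparison Tsc22d3 (-0.49) and Tob1 (-0.47) differed more than Foxo1 (-0.34). The background of genes that fell is 0.682% in Tg and 1.18% in the library labelled KO.

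The ubiquitin ligases that remove cell cycle proteins differed by subunit. The background for the counts of this paragraph is that 46.7% of all genes were higher by any amount in Tg and 44% in the library labelled KO. Several of the counts are small or near these shares. Of 16 genes of the anaphase-promoting complex and its regulators, 10 were higher in Tg (median 0.03) and 11 in the library labelled KO (median 0.17), and Ube2c, its E2 enzyme, was the 1 that rose in the library labelled KO, at 100.1 FPKM against 48.1 in transplanted WT; it was at 85.0 FPKM in Tg against 58.5 in steady-state WT. Its inhibitor Fbxo5 was at 38.7 FPKM in Tg and 33.4 in steady-state WT, and at 56.1 in the library labelled KO and 28.1 in transplanted WT. Of 6 SCF genes beside Skp2, 1 was higher in Tg and 4 in the library labelled KO, and of 5 MuvB core genes 3 and 4. Among 10 checkpoint genes, 5 were higher in Tg (median 0.06) and 4 in the library labelled KO (median -0.06). Chek1 was at 7.94 FPKM in Tg and 5.603 in steady-state WT, and at 9.63 in the library labelled KO and 6.35 in transplanted WT. Gadd45b was at 34.97 FPKM in Tg and 31.72 in steady-state WT, but lower in the library labelled KO, at 32.85 against 50.57 in transplanted WT. Of 14 other cyclins, CDKs and inhibitors 9 reached 1 FPKM, of which 5 were higher in Tg and 6 in the library labelled KO. Cdkn1a, the p21 inhibitor, was at 9.54 FPKM in Tg and 6.17 in steady-state WT, and at 10.4 in the library labelled KO and 6.67 in transplanted WT. Cdkn2a was at 1.335 FPKM in Tg and 0.946 in steady-state WT, but lower in the library labelled KO, at 0.798 against 1.788 in transplanted WT. Tfdp2 was lower in Tg, at 17.44 FPKM against 25.51 in steady-state WT, and at 21.06 in the library labelled KO and 18.1 in transplanted WT. Ccna1 and Ccnb3 were listed at 0 in all 4 libraries.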
